A study of Mus musculus with 6 samples.

Results

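Transcripts of 10 genes of the insulin signalling pathway were compared in mouse liver after vertical sleeve gastrectomy (VSG, bariatric surgery that leaves a narrow sleeve of stomach) and after sham surgery. The genes were Insr, Irs1, Irs2, Pik3r1, Pik3ca, Akt1, Akt2, Foxo1, Foxo3 and Grb10. They were taken from a list drawn up for their place in the pathway, and each was found by its symbol in GENCODE M21 among the 55385 genes of the deposited count table. All 10 had enough counts to be tested. Poly(A) RNA had been sequenced from the livers of 6 male mice, C57BL/6 wild type per the study's methods, 3 sham (replicates 1 to 3) and 3 VSG (replicates 4 to 6). Mice of both groups were 6 to 8 weeks old when a high-fat diet began, were fed it for 10 weeks before the operation and then for 12 weeks after it. No lean and no unoperated group was included, and the feeding state at collection was not given in the sources used here. The comparison asks how the liver's response to the operation appears in the transcripts of the pathway through which insulin acts.

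Insulin binds its receptor on the hepatocyte, and the receptor phosphorylates docking proteins of the IRS family. These recruit phosphoinositide 3-kinase (PI3K), whose lipid product brings the kinase Akt to the membrane, where it is activated. Akt phosphorylates FoxO transcription factors, which are then kept out of the nucleus, so that FoxO-dependent genes of glucose production are expressed in fasting and are silenced after a meal. Most of this traffic is by phosphorylation, which RNA counts do not measure.

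Total counts ran from 22804397 to 24191778 per library. Levels are given as CPM (counts relative to the size of the library, scaled with TMM factors), and levels of different genes are compared only as FPKM (the same values per 1000 bases of exon). Differences are log2 fold changes of VSG against sham with their standard error (SE), tested with edgeR's quasi-likelihood test and adjusted by the Benjamini-Hochberg method over the 14454 genes tested. Per the methods, RNA came from 3 mice of each group. As a check of the tissue, the 7 hepatocyte markers found summed to between 57163 and 109068 CPM, and the adipocyte markers and skeletal muscle markers to at most 3.06 and 0.849 CPM. The 10 neutrophil markers summed to between 7.36 and 21.8 CPM in sham and between 156 and 1839 CPM after VSG, and all 10 were higher after VSG. The 8 macrophage markers summed to between 345 and 730 CPM in sham and between 742 and 2165 CPM after VSG, and 4 were higher. Summed ranges of sham and VSG livers were 325 to 587 and 139 to 302 CPM for the 6 stellate cell markers (1 lower after VSG), 265 to 316 and 279 to 345 CPM for the 6 endothelial markers (none called), and 57.7 to 253 and 73.4 to 200 CPM for the 5 bile duct markers (1 higher). B cell and T cell markers stayed at or under 6.61 CPM in sum in each library, with none called. Mitochondrial genes took 5.59% to 6.58% of counts in sham and 4.14% to 5.01% in VSG libraries, and the 10 most abundant genes took 23.7% and 22.9% in VSG replicates 4 and 6 and from 17.0% to 19.1% in the other 4 libraries. The part of these differences in the results was not tested. In whole tissue, fewer cells of a type and less RNA per cell cannot be told apart.

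Of the 10 genes, 1 passed the test at an adjusted p under 0.05, the transcription factor gene Foxo3, which was lower after VSG. Over all genes tested, 14.7% passed. In 3 of the 10 genes (Irs2, Akt1 and Foxo3) the ranges of the 2 groups did not overlap, against 39.7% of all genes tested, so neither share of the pathway genes was above that of the whole table. Log2 fold changes of the 10 genes ran from -0.71 for Foxo1 to 0.72 for Irs2, 5 of them positive and 5 negative, and their median was -0.04, beside 0.03 over all genes tested. At an unadjusted p under 0.05 there were 4 of the 10, beside 33.9% of all genes tested.

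**Figure D1:**
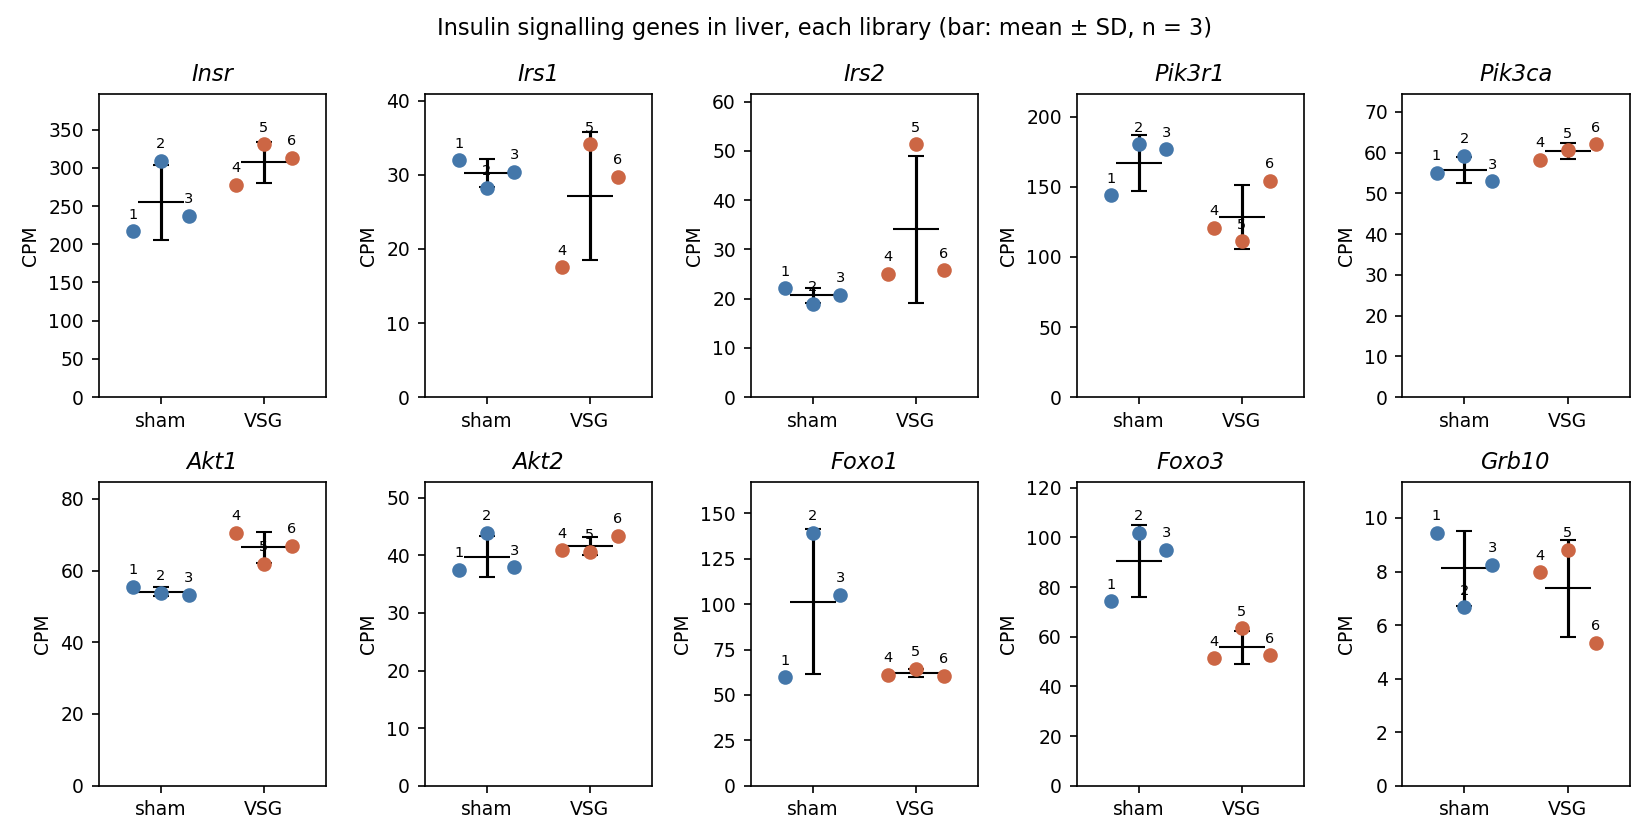
Level of each of the 10 genes (vertical axis, CPM from 0) in each sham library (blue, replicates 1 to 3) and each VSG library (orange, replicates 4 to 6), with a horizontal bar for the mean and a vertical bar for the SD (n = 3). Foxo3 and Akt1 show groups that do not overlap, Foxo1 shows a sham group spread from 59.7 to 139 CPM beside a tight VSG group, and the VSG mean of Irs2 is pulled up by replicate 5 at 51.4 CPM.

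Per base of exon, Insr was the most abundant of the 10 genes in both groups and Grb10 the least. In sham livers the order was Insr (18.5 ± 3.53 FPKM, SD, n = 3), Pik3r1 (16.6 ± 2.0), Akt1 (13.2 ± 0.277), Foxo3 (11.9 ± 1.91), Foxo1 (11.7 ± 4.62), Pik3ca (6.13 ± 0.349), Akt2 (5.58 ± 0.505), Irs1 (3.30 ± 0.206), Irs2 (3.27 ± 0.254) and Grb10 (0.894 ± 0.154). At 5 of these steps the neighbours lay within the spread, since the ranges of Insr and Pik3r1, of Akt1 and Foxo3, of Foxo3 and Foxo1, of Pik3ca and Akt2, and of Irs1 and Irs2 overlapped. In VSG livers Akt1, at 16.2 ± 1.07 FPKM, stood above Pik3r1 at 12.8 ± 2.25 FPKM, and Irs2, at 5.39 ± 2.37 FPKM, stood above Irs1 at 2.97 ± 0.940 FPKM. The ranges of Akt1 and Pik3r1, separate in sham, overlapped after VSG, and those of Irs2 and Irs1, which overlapped in sham, were separate.

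The receptor itself, Insr (ENSMUSG00000005534.10, chromosome 8, 3122061 to 3279617, minus strand, GRCm38), was at 217, 309 and 237 CPM in sham replicates 1 to 3 and at 278, 331 and 313 CPM in VSG replicates 4 to 6. Sham replicate 2 lay above VSG replicate 4, so the groups overlapped. The log2 fold change of 0.27 (SE 0.168, adjusted p 0.293 by edgeR) did not pass the test in this fit or in any of 12 alternatives.

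Irs1 and Irs2 encode the 2 docking proteins that carry most of the insulin signal in hepatocytes, and Irs2 is known as a FoxO target that falls when insulin is high. Irs2 (ENSMUSG00000038894.7, chromosome 8, 10984681 to 11008458, minus strand) was at 22.2, 19.0 and 20.8 CPM in sham and at 25.02, 51.4 and 25.8 CPM after VSG. All 3 VSG libraries lay above all 3 sham libraries, but VSG replicate 5 lay far above the other VSG libraries, which were close to the sham range. The log2 fold change was 0.72 (SE 0.286, adjusted p 0.130 by edgeR), and without VSG replicate 5 it was 0.28 with an adjusted p of 0.137. Irs1 (ENSMUSG00000055980.2, chromosome 1, 82233101 to 82291416, minus strand) was at 32.0, 28.2 and 30.4 CPM in sham and at 17.6, 34.2 and 29.7 CPM after VSG. Only VSG replicate 4 stood apart, below the other 5 libraries. The log2 fold change of -0.15 (SE 0.233, adjusted p 0.666 by edgeR) turned to 0.082 without that library.

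A ratio of 2 genes within a library does not depend on how libraries are scaled, so related genes were also compared in this way, as counts per base of exon. Irs2 and Irs1 were equal to within 3% in sham livers, with ratios of 1.002, 0.971 and 0.991. Of the 9144 exon bases of Irs1, 2822 are shared with Gm9747, a gene on the opposite strand with 2 counts in all. Irs2 shares 162 of its 6323 with 9530052E02Rik, also opposite, which had 9 counts. How reads in shared bases were counted was not given, so the size of the ratios and the Irs1 FPKM may be affected. These shared bases are the same for sham and VSG libraries. In VSG livers the ratios were 2.06, 2.18 and 1.25. All VSG ratios were above all sham ratios, by 0.85 on the log2 scale on average. In replicate 4 the high ratio came with the lowest Irs1 level and in replicate 5 with the highest Irs2 level. The exact two-sided permutation p was 0.1, the smallest that this test allows for 3 against 3 libraries (0.133 adjusted over the 4 ratios computed).

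The words that FoxO proteins are known to bind are shown for the promoters of Irs2, Irs1, Akt1, Igfbp1 and G6pc. Irs2 shares one with Igfbp1 and G6pc, classical FoxO targets described further on. RefSeq promoters (GRCm38.p6) were found for 9 of the 10 genes. Their 250 bases before the start were searched on both strands for GTAAACA, the core of the FoxO binding word, and for CAAAACA, the core of the insulin response element. No match of one word overlapped a match of the other in these promoters. Irs2, Irs1 and Akt1 held a match. The other 6 genes held neither, which says only that these letters are not in these windows. Of all 32851 promoters, 3.17% held GTAAACA and 5.56% held CAAAACA on either strand. The stretches are printed 5′ to 3′ on the strand of the gene, with the matching word in capitals. In the genes on which the word reads TGTTTTG or TGTTTAC, the match is on the other strand.
Irs2, chr8:11008940-11008986, minus strand, word 37 bases before the start: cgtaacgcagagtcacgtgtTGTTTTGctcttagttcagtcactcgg
Irs1, chr1:82291445-82291570, minus strand, words 111 and 32 bases before the start: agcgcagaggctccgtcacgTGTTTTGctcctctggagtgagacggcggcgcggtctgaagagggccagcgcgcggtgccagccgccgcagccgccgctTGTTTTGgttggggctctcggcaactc
Akt1, chr12:112675019-112675065, minus strand, word 161 bases before the start: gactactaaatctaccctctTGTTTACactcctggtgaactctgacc
Igfbp1, chr11:7197659-7197705, plus strand, word 108 bases before the start: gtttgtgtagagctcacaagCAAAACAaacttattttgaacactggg
G6pc, chr11:101367522-101367568, plus strand, word 174 bases before the start: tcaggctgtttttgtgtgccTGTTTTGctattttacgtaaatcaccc
The RefSeq start of Irs2 lies 471 bases upstream of the GENCODE start of the gene. For Pik3ca, which held neither word, the RefSeq start lies 606 bases upstream. Grb10, also without a word, has RefSeq starts downstream of its GENCODE start only. Akt1 held its match in 1 of its 2 RefSeq promoters. None of Irs2, Irs1, Akt1, Igfbp1 and G6pc had an adjusted p under 0.05. Among the other named genes searched, Txnip, which fell, held GTAAACA 121 bases before its start, while Pck1, Pdk4, Ppargc1a, Trib2 and Socs3 held neither word.

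PI3K is a dimer of a catalytic subunit, here Pik3ca, and a regulatory subunit, here Pik3r1, which holds the enzyme inactive until an IRS protein binds it. Pik3r1 (ENSMUSG00000041417.15, chromosome 13, 101680563 to 101768217, minus strand) was at 144, 180.5 and 177 CPM in sham and at 121, 111 and 154 CPM after VSG. VSG replicate 6 lay above sham replicate 1. Its log2 fold change was -0.38 (SE 0.164, adjusted p 0.159 by edgeR), and it passed the threshold only when total counts replaced the TMM scaling (adjusted p 0.0486). Pik3ca (ENSMUSG00000027665.13, chromosome 3, 32397671 to 32468486, plus strand) was at 55.0, 59.2 and 53.0 CPM in sham and at 58.2, 60.6 and 62.1 CPM after VSG. It was among the steadiest of the genes, with a coefficient of variation of 5.69% in sham and 3.24% after VSG. Its log2 fold change was 0.11 (SE 0.0860, adjusted p 0.383), and -0.024 with total counts. Within a library, Pik3r1 exceeded Pik3ca 2.36, 2.75 and 3.01 times in sham and 1.87, 1.65 and 2.24 times after VSG. These ratios did not overlap, and they differed by -0.50 on the log2 scale (exact two-sided permutation p = 0.1, adjusted 0.133).

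Akt1 and Akt2 are the 2 forms of Akt in the liver, and Akt2 is the one tied most closely to metabolism. Akt1 (ENSMUSG00000001729.14, chromosome 12, 112653821 to 112674884, minus strand) was at 55.4, 53.8 and 53.3 CPM in sham and at 70.6, 61.9 and 66.9 CPM after VSG. All VSG libraries were above all sham libraries, and the sham libraries differed from each other by a coefficient of variation of 2.09%. Among VSG libraries Akt1 was highest in replicate 4 and lowest in replicate 5, as were the summed neutrophil and macrophage markers. The part of those cells in its value was not tested. The log2 fold change of 0.29 (SE 0.0876) was 3.4 times its standard error and did not pass after adjustment (adjusted p 0.0665 by edgeR). It did not pass under any of the 12 alternatives, over which the adjusted p ran from 0.0568 with DESeq2 to 0.477 with total counts. Akt2 (ENSMUSG00000004056.15, chromosome 7, 27591552 to 27640826, plus strand) was at 37.5, 43.9 and 38.0 CPM in sham and at 40.9, 40.7 and 43.4 CPM after VSG, with overlapping groups. Its log2 fold change of 0.07 (SE 0.0966, adjusted p 0.660) was -0.069 with total counts. Per base of exon, Akt2 stood at 0.389, 0.470 and 0.409 of Akt1 in sham and at 0.333, 0.378 and 0.373 after VSG. The ratio was lower in each VSG library than in each sham library, by -0.23 on the log2 scale (exact two-sided permutation p = 0.1, adjusted 0.133).

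Foxo3 fell after VSG. Foxo3 (ENSMUSG00000048756.11, chromosome 10, 42181841 to 42276755, minus strand), which encodes a FoxO factor known in liver for overlapping work with Foxo1, was at 74.2, 102 and 95.0 CPM in sham and at 51.4, 63.4 and 52.5 CPM after VSG. Every VSG library lay below every sham library. Its log2 fold change was -0.70 (SE 0.151), or 1.62-fold lower, with an adjusted p of 0.0308 by edgeR. The direction was the same in all 12 alternatives, from -0.83 to -0.60 on the log2 scale, and 8 of them passed the threshold. The call was lost without sham replicate 2 (adjusted p 0.0834 by edgeR), sham replicate 3 (0.123), VSG replicate 4 (0.0747) or VSG replicate 6 (0.112). The log2 fold changes in these fits were -0.60, -0.67, -0.64 and -0.65. Calls over all genes also fell in them, to 797, 159, 1076 and 210 from 2118. With DESeq2 the adjusted p was 0.00199.

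Foxo1 (ENSMUSG00000044167.6, chromosome 3, 52268336 to 52353221, plus strand), the main FoxO factor of hepatic glucose production and a gene the study followed, had nearly the same log2 fold change as Foxo3 but not its even groups. It was at 59.7, 139 and 105 CPM in sham and at 61.1, 64.4 and 60.7 CPM after VSG. Sham replicate 1 lay below all VSG libraries, while sham replicates 2 and 3 lay far above them. The coefficient of variation was 39.4% in sham and 3.27% after VSG. Of all genes tested, 4.32% had a larger SD on the log2 scale in sham livers, and 94.8% had a larger one after VSG. The log2 fold change of -0.71 (SE 0.282, adjusted p 0.131 by edgeR) was -0.99 without sham replicate 1, with an adjusted p of 0.0269, and -0.41 without sham replicate 2, with an adjusted p of 0.305. The ratio of Foxo1 to Foxo3 per base of exon was 0.702, 1.19 and 0.967 in sham and 1.04, 0.887 and 1.01 after VSG, with overlapping groups (difference of 0.07 on the log2 scale, exact two-sided permutation p = 0.8). Exons of Foxo1 overlap 674 bases of the antisense gene Gm20402, which had 5 counts in all 6 libraries together.

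Of the other FoxO factors, Foxo4 was at 23.5, 28.5 and 24.6 CPM in sham and at 26.8, 27.2 and 24.6 CPM after VSG. The groups overlapped, and the log2 difference of 0.040 (SE 0.108, adjusted p 0.815 by edgeR) did not pass. Foxo6, with at most 1 count in any library, was too low to be tested.

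Grb10 (ENSMUSG00000020176.17, chromosome 11, 11930508 to 12038683, minus strand) encodes an adaptor that binds the activated insulin receptor and dampens its signal, and the gene is imprinted. It was the lowest of the 10, at 9.45, 6.67 and 8.24 CPM in sham and at 7.96, 8.81 and 5.34 CPM after VSG, from 112 to 256 counts per library. The groups overlapped throughout. Its log2 fold change of -0.14 (SE 0.229, adjusted p 0.691 by edgeR) became 0.046 without VSG replicate 6.

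**Figure D2:**
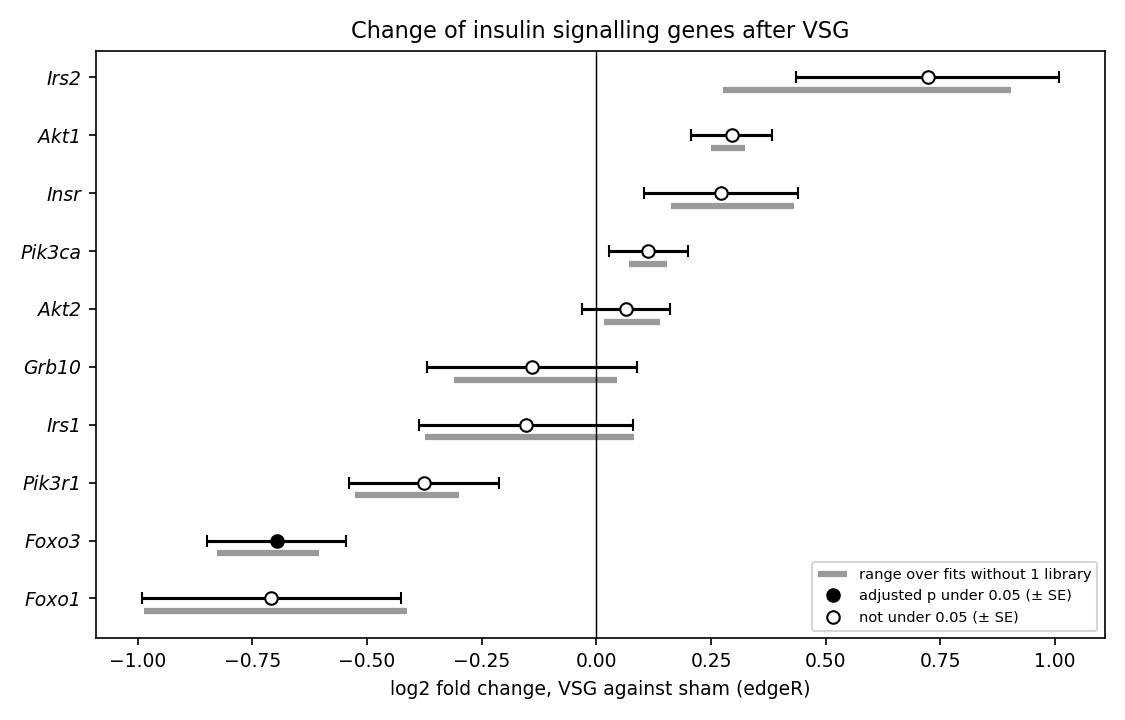
Log2 fold change of each of the 10 genes after VSG (horizontal axis, edgeR) with its SE as the black bar, filled where the adjusted p was under 0.05, and in grey the range over the 6 fits that left out 1 library. Foxo3 alone is filled, at -0.70. The grey ranges of Irs1 and Grb10 cross 0, and those of Irs2 and Foxo1 are the widest in which the sign held.

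**Figure D3:**
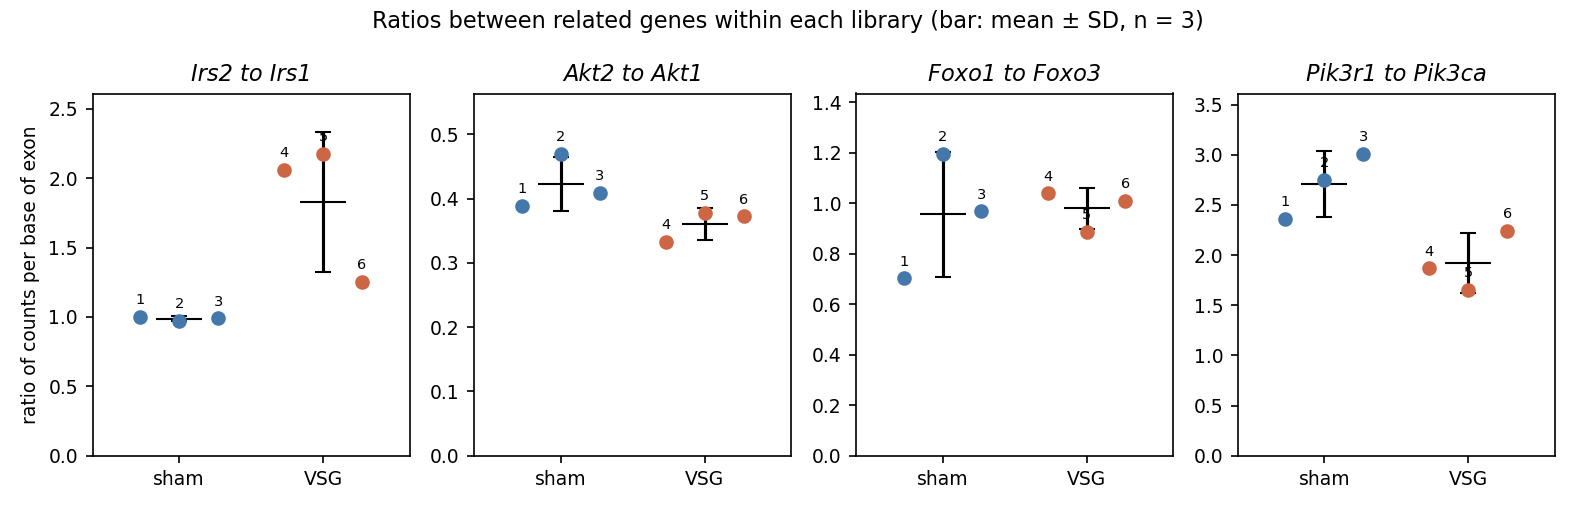
Ratio of counts per base of exon between related genes (vertical axis, from 0) in each sham library (blue) and each VSG library (orange), with mean and SD (n = 3). Irs2 to Irs1 lies near 1 in all sham libraries and between 1.25 and 2.18 in VSG libraries, the ratios of Akt2 to Akt1 and of Pik3r1 to Pik3ca are lower in each VSG library, and Foxo1 to Foxo3 overlaps.

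The profiles most like those of Foxo1 and Irs2 were sought among the 9964 other genes with a mean of at least 5 CPM, by the root mean square difference of log2 CPM over the 6 libraries after each gene was centred on its own mean. Herpud1, which encodes a membrane protein of the endoplasmic reticulum, was closest to Foxo1, with a difference of 0.0454 beside a median of 0.505 over all genes compared. It was at 302, 669 and 555 CPM in sham and at 301, 317 and 312 CPM after VSG, with sham replicate 1 at the level of the VSG libraries. Rusc2 (0.105) and Slc45a3 (0.131) followed. Closest to Irs2 were Adck5 (0.123), Zfp707 (0.146) and Cyp3a13 (0.162), each highest in VSG replicate 5. All of these genes were picked for their likeness over the same libraries, so the shared patterns follow from the search.

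The wider pathway was described with lists of further genes. Upstream, among 11 tested genes of receptors and docking proteins, 1 was higher after VSG and 0 were lower, where 6.79% of all genes tested were higher and 7.87% lower. The gene was Sh2b2, an adaptor that binds the insulin receptor, which rose from 1.84 ± 0.387 to 4.21 ± 1.33 CPM (log2 change 1.19, SE 0.292, adjusted p 0.0413 by edgeR). It kept its call under 5 of 12 alternatives. Sh2b2 was highest in VSG replicate 4 (5.70 CPM) and lowest of the VSG libraries in replicate 5 (3.16 CPM), as were the summed neutrophil and macrophage markers, whose part in its value was not tested. Insrr and Irs4 were too low to be tested. Of 10 further PI3K and Akt kinase genes, 0 passed with edgeR and 0 with limma-voom, 2 passed with DESeq2, and 6 had an unadjusted p under 0.05. Over all genes, 12.9% passed with limma-voom, 19.3% with DESeq2 and 33.9% at that unadjusted p. In sign, 6 of these kinase genes were positive and 4 negative. Sgk1 had the lowest log2 fold change, -1.19, without overlap of the groups (adjusted p 0.0654 by edgeR), and passed in 4 of 12 alternatives. Pik3cd and Pik3cg, catalytic subunits known chiefly from leukocytes, were at 11.8 ± 3.61 and 3.66 ± 1.65 CPM in sham and at 26.1 ± 14.8 and 9.22 ± 4.85 CPM after VSG (adjusted p 0.125 and 0.110). Both were highest in VSG replicate 4 and lowest of the VSG libraries in replicate 5, the order of the same markers, and the part of those cells in these values was not tested.

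Among 15 negative regulators of the pathway, 2 were higher and 1 was lower, so that 3 of 15 were called, near the 14.7% of all genes tested. Socs3, an inhibitor of cytokine receptors that also binds the insulin receptor, rose from 8.90, 4.39 and 6.19 CPM in sham to 48.3, 25.9 and 31.7 CPM after VSG (log2 change 2.44, SE 0.328, adjusted p 0.0104 by edgeR). The call was lost without sham replicate 3 (adjusted p 0.0641) or VSG replicate 6 (0.0517). Ptpn2, a tyrosine phosphatase, rose from 12.8 ± 0.736 to 18.5 ± 2.75 CPM (adjusted p 0.0454), a call kept in 4 of 12 alternatives. Trib2, a pseudokinase, fell from 4.97 ± 0.556 to 2.75 ± 0.515 CPM (adjusted p 0.0398), a call kept in 7 of 12. Neutrophil and macrophage markers were higher in the same VSG livers, and their part in the values of Socs3 and Ptpn2 was not tested.

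The list of the mTOR and GSK3 arms also held Foxo4 and Foxo6, which are FoxO factors and belong to neither arm. Of its 16 tested genes, Foxo4 among them, 1 was higher and 0 were lower, or 6.25% called, below the 14.7% of all genes tested. With DESeq2, and also with total counts, 4 were called, 1 higher and 3 lower. Over all genes 19.3% passed with DESeq2 and 13.8% with total counts. Rictor, the subunit that defines the mTOR complex known to phosphorylate Akt, rose from 35.2, 34.5 and 30.0 CPM in sham to 49.3, 55.1 and 58.6 CPM after VSG. The log2 fold change was 0.71 (SE 0.108, adjusted p 0.0141 by edgeR), the groups were far apart, and the call held in 10 of 12 alternatives, the exceptions being the fits without sham replicate 3 (0.0756) and without VSG replicate 6 (0.0647). Mtor and Rptor, the latter the subunit of the other mTOR complex, were at -0.39 and -0.45 on the log2 scale and did not pass (adjusted p 0.0816 and 0.0693).

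**Figure D4:**
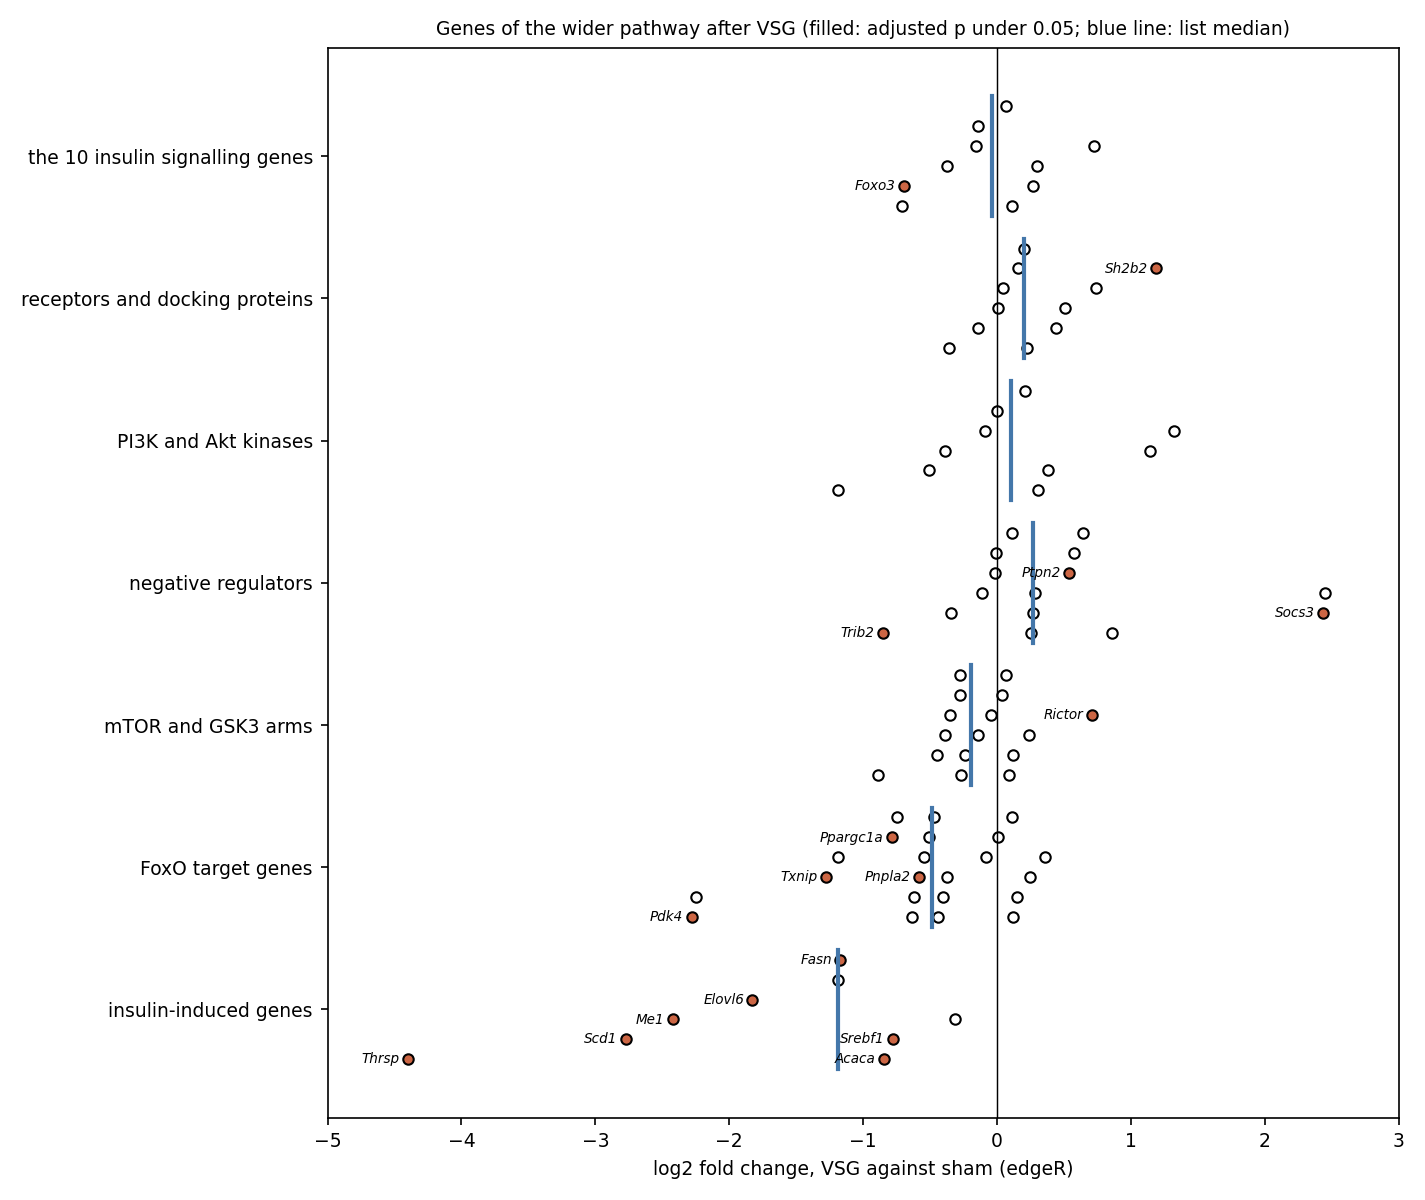
Log2 fold change after VSG (horizontal axis, edgeR) of each tested gene of the 10 insulin signalling genes and of 6 further lists (Foxo4 is among the mTOR and GSK3 arms), filled and named where the adjusted p was under 0.05, with the median of each list as a blue line. The medians of the first 5 lists lie between -0.19 and 0.27, that of the FoxO target genes lies at -0.49 and that of the insulin-induced genes at -1.19.

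Of 22 tested genes known to be switched on by FoxO factors, 4 were lower after VSG and 0 were higher. That is 18.2% called in the main fit, near the 14.7% of all genes tested, of which 7.87% were lower. With DESeq2, and also with total counts, 7 were called, all lower. Over all genes 19.3% passed with DESeq2 and 13.8% with total counts. Their median log2 fold change was -0.49, beside 0.03 over all genes tested. Pdk4, which restrains pyruvate oxidation in fasting, fell from 19.5, 40.1 and 18.8 CPM to 4.62, 6.88 and 4.58 CPM (log2 change -2.28, SE 0.350, adjusted p 0.0142 by edgeR). Txnip, which limits glucose uptake, fell from 194 ± 46.4 to 80.1 ± 22.2 CPM (log2 change -1.27, adjusted p 0.0270). Ppargc1a, a coactivator of gluconeogenesis, fell from 20.9 ± 3.89 to 12.1 ± 2.02 CPM (log2 change -0.79, adjusted p 0.0371), and the lipase gene Pnpla2 had a log2 fold change of -0.58 (adjusted p 0.0494). Pdk4 lost its call without VSG replicate 6 (0.0695) and, at the edge of the threshold, without sham replicate 3. Txnip and Ppargc1a lost theirs in 4 and Pnpla2 in 6 of 12 alternatives.

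The classical FoxO targets Igfbp1, G6pc and Pck1 did not pass the edgeR test. The study reported G6pc and Pck1 as repressed by VSG in these same livers and used DESeq2 for differential expression. With DESeq2 here the adjusted p was 0.0299 for G6pc and 0.450 for Pck1. The direction of these 2 genes is therefore not independent evidence. Igfbp1, a secreted binding protein of insulin-like growth factors that insulin silences, was at 35.3, 118 and 29.8 CPM in sham and at 80.9, 50.1 and 41.3 CPM after VSG. Its log2 fold change of -0.08 (SE 0.550, adjusted p 0.928) was 0.82 without sham replicate 2, 0.11 without VSG replicate 6 and 0.13 under limma-voom. G6pc, the last enzyme of glucose production, was at 174, 496 and 227 CPM in sham and at 23.4, 117 and 48.8 CPM after VSG, without overlap (log2 change -2.25, SE 0.653, adjusted p 0.0636 by edgeR). Its call depended on the setting, and 4 of 12 alternatives passed. Pck1, at 1884, 3835 and 1920 CPM in sham and at 1124, 2076 and 2438 CPM after VSG, overlapped (log2 change -0.44, adjusted p 0.470). Its log2 change was -0.021 when sham replicate 2 was left out, and it ran from -0.67 to -0.021 over the 6 fits without 1 library. Sham replicate 2, the library with the highest Foxo1 level, was also the highest sham library for Igfbp1, G6pc, Pck1 and Pdk4, and for 13 of the 22 FoxO targets (59.1%). It was the highest sham library for 6 of the 10 insulin signalling genes, 5 of the 9 insulin-induced genes (55.6%) and 40.8% of all genes tested.

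**Figure D5:**
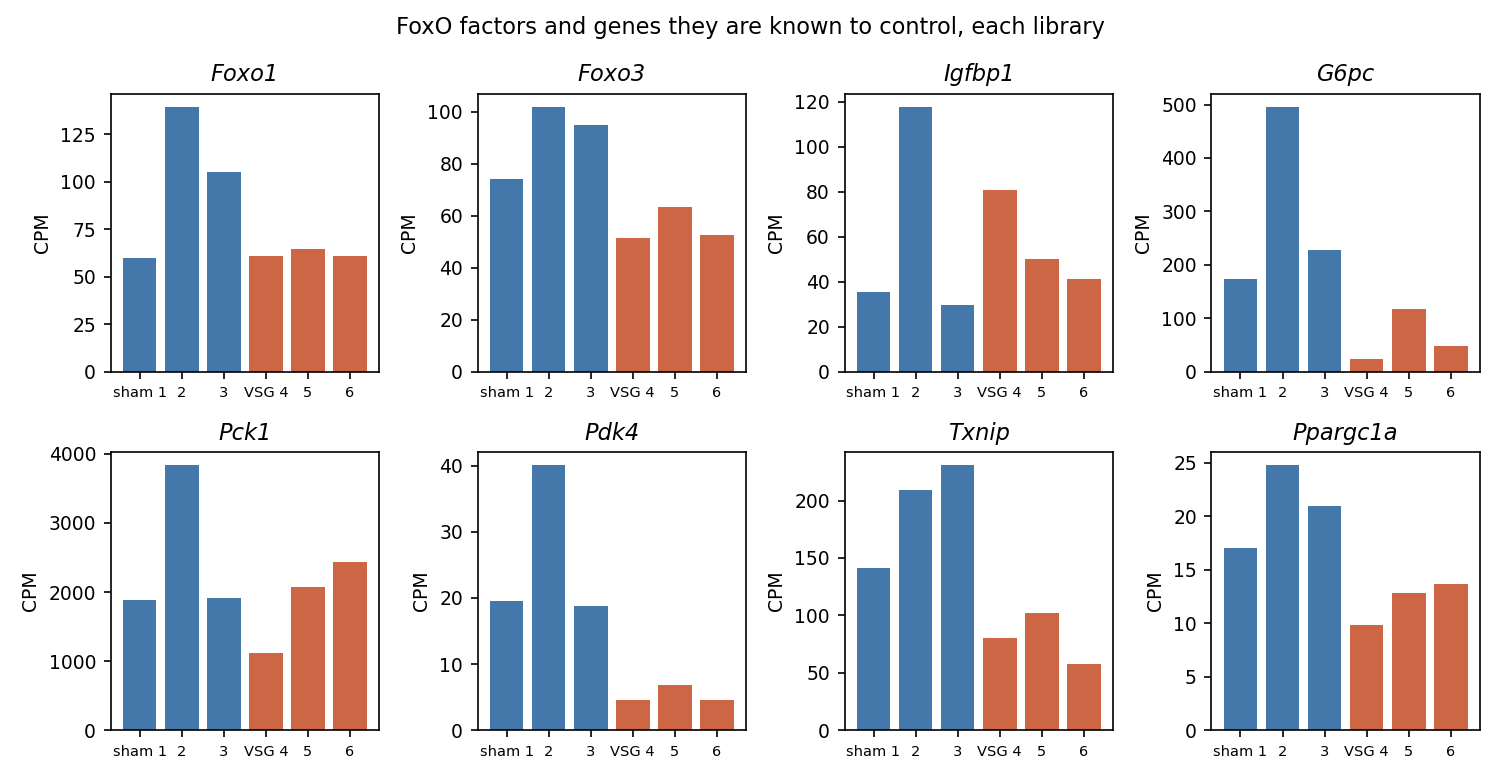
Level (vertical axis, CPM from 0) of Foxo1, Foxo3, Igfbp1, G6pc, Pck1, Pdk4, Txnip and Ppargc1a in each library, sham replicates 1 to 3 in blue and VSG replicates 4 to 6 in orange. Sham replicate 2 is the highest of the 6 libraries for Foxo1, Foxo3, Igfbp1, G6pc, Pck1, Pdk4 and Ppargc1a, and the VSG libraries lie below all sham libraries for Foxo3, G6pc, Pdk4, Txnip and Ppargc1a.

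Genes that insulin is known to induce in hepatocytes were lower after VSG as well. Of 9 tested, 7 were lower and 0 were higher, or 77.8% called beside 14.7% of all genes tested, with a median log2 fold change of -1.19. The study used several of these genes to follow the operation in these same livers, so their direction is not independent evidence. The list was also drawn up with earlier results of these data known, so its share of calls is a description only. Me1, the malic enzyme that supplies NADPH to fatty acid synthesis, fell from 88.7 ± 19.0 to 16.6 ± 1.54 CPM (log2 change -2.42, SE 0.177, adjusted p 0.00197) and kept its call in all 12 alternatives. Srebf1, the lipogenic transcription factor induced by insulin, fell from 143 ± 9.20 to 83.2 ± 9.48 CPM (log2 change -0.78, adjusted p 0.0142), and Acaca, its target in fatty acid synthesis, from 43.5 ± 3.11 to 24.3 ± 1.81 CPM (log2 change -0.84, adjusted p 0.00809). Thrsp, Scd1 and Elovl6, which serve the same pathway, fell as well (log2 changes of -4.40, -2.77 and -1.83, adjusted p from 0.00993 to 0.0142). Of these 6 genes, all but Me1 lost the call without sham replicate 3, with adjusted p-values from 0.0512 to 0.0756, and all but Me1, Acaca and Elovl6 lost it without VSG replicate 6 (0.0576 to 0.0686).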

How the data were processed

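Per the labels and the study's methods, the authors extracted RNA from about 40 mg of liver, made poly(A)-selected strand-specific libraries, aligned them with STAR 2.6.0 to mm10 and deposited raw counts per gene from featureCounts. The processing notes give version 2.0.3 of featureCounts, and the methods another. The annotation release and the strand and multi-mapping options were not given in the sources used here. The deposited exon length of each gene, another column of the same table, entered FPKM and ratios only. Of 55385 identifiers, 55144 were matched to GENCODE M21 (GRCm38, the assembly of mm10) and 241 were not. Starts and ends of all 10 genes were equal in both.

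The test of the counts was that of edgeR 4.0.16 under R 4.3.3 (filterByExpr with a minimum count of 10 and a minimum total of 15, TMM factors of 0.897 to 1.15, glmQLFit and glmQLFTest with group as the only term). The SE is the log2 fold change divided by the square root of F. Ratios were tested with an exact permutation test. Alternatives were DESeq2 1.42.0 (all genes with a count, its own filter), limma-voom (limma 3.58.1), RLE factors, total counts, 2 other filters and 6 fits without 1 library. The code was checked on simulated data. No 2 libraries of a group agreed within counting noise (chi-square per degree of freedom of 25.2 to 72.2 between sham libraries, and of 193, 56.3 and 92.3 for VSG replicates 4 and 5, 4 and 6, and 5 and 6). A floor of 3 counts was 0.111 to 0.143 CPM. One hepatocyte marker, Tf, was not found under that symbol.

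The 10 genes and the lists were chosen with earlier results of these data known. Named genes were the 10, then Igfbp1, G6pc and Pck1 (1 further gene of this rule is not reported here), then up to 6 genes with the smallest p of each list among those past the threshold, and the 3 profiles nearest to Foxo1 and Irs2. The others (Pik3cd, Pik3cg, Sgk1, Mtor, Rptor, Foxo4, and Insrr, Irs4 and Foxo6 as too low to test) were chosen after their values were seen.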

Additional observations from a re-analysis of the deposited data

How the results depend on the processing

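Of 120 recomputed log2 fold changes of the 10 genes (12 alternatives each), 110 kept their direction and their side of the threshold. In sign, 4 turned, Pik3ca (-0.024) and Akt2 (-0.069) with total counts, Irs1 without VSG replicate 4 (0.082) and Grb10 without VSG replicate 6 (0.046), and 6 of the 10 genes kept their sign throughout. Total counts moved the median of all genes to -0.11, from 0.03, and the share of higher genes among calls from 46.3% to 24.3% (486 higher and 1512 lower against 981 and 1137), so changes under that scaling are read against that shift. There Pik3r1 passed (-0.52). The cause of the changes was not tested.

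Without 1 library, from 159 to 2732 genes passed against 2118, and 0 to 2 of the 10 genes (0 without sham replicate 2 or 3 or VSG replicate 4 or 6, 2 without sham replicate 1) against 1. The ranges were -0.83 to -0.60 for Foxo3, -0.99 to -0.41 for Foxo1, 0.28 to 0.90 for Irs2, 0.16 to 0.43 for Insr, -0.37 to 0.082 for Irs1, -0.53 to -0.30 for Pik3r1, 0.07 to 0.16 for Pik3ca, 0.25 to 0.32 for Akt1, 0.02 to 0.14 for Akt2 and -0.31 to 0.046 for Grb10. Log2 ratios ran from 0.70 to 1.10 (Irs2 to Irs1), -0.28 to -0.15 (Akt2 to Akt1), -0.61 to -0.39 (Pik3r1 to Pik3ca) and -0.14 to 0.24 (Foxo1 to Foxo3, negative without sham replicate 1). Called genes numbered 0 to 3 of receptors and docking proteins, 0 to 3 of PI3K and Akt kinases, 0 to 4 of negative regulators, 0 to 3 of mTOR and GSK3 arms, 0 to 6 of FoxO targets and 1 to 8 of insulin-induced genes. Over all genes, leaving out sham replicates 1, 2 and 3 in turn gave 1214, 797 and 159 calls, and VSG replicates 4, 5 and 6 gave 1076, 2732 and 210.

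DESeq2 called 3270 genes, with 2 receptor and docking genes, 2 PI3K and Akt kinases, 5 negative regulators, 4 mTOR and GSK3 genes and 7 FoxO targets. Total counts called 2 of the 10 genes, 0 receptor and docking genes, 2 PI3K and Akt kinases, 4 mTOR and GSK3 genes and 7 FoxO targets. limma-voom called 0 receptor and docking genes, no filter gave 1 PI3K and Akt kinase, and at least 10 counts in every library gave 2 mTOR and GSK3 genes. Igfbp1 turned to 0.13 under limma-voom and ran from -0.42 to 0.82 when 1 library was left out, at 0.82 for sham replicate 2 and 0.11 for VSG replicate 6.

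No paired analysis was possible because the replicate numbers of the groups are not shared. With groups of 3, the exact permutation test of a ratio cannot give a p below 0.1. A p that misses the threshold does not show that levels were equal.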
